A study of Homo sapiens with 2 samples.

Results

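The 9 genes described here encode transcription factors that shape the Mullerian duct and the epithelium that grows from it: PAX2, PAX8, EMX2, SOX9, SOX17, FOXA1, FOXA2, GATA2 and GATA6. They were chosen by name, as those probe sets of the array that carry exactly 1 gene symbol equal to a member, and all 9 of the 19775 genes measured were found, on 25 probe sets. Where a gene had several, the one brightest on average over the arrays stood for it, and the others are given too. HEC1A, an established cell line from a human endometrial adenocarcinoma, was profiled in 2 engineered states, 1 labelled EMP2 overexpression and 1 labelled EMP2 knockdown, the latter made with a short hairpin RNA vector. EMP2 is a small tetraspan membrane protein. Both lines grew in McCoys medium with serum and received no treatment. Each state was measured on 1 array, so no value below has a replicate check, no test was possible, and no unmodified HEC1A array was used here. The promoter of the transgene, and whether each line was a clone or a pool, are not stated in the labels. A difference means overexpression minus knockdown on the log2 scale, and a fold is the higher over the lower value on the linear scale.

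The Mullerian ducts form the oviduct, uterus and upper vagina. PAX2 and PAX8 are paired-box factors, and EMX2 is a homeobox factor, that are needed for the urogenital ducts. PAX8 stays on in the adult epithelium and is used in pathology to recognise tumours of Mullerian origin. SOX9 and SOX17 carry an HMG box, FOXA1 and FOXA2 are pioneer factors that can bind closed chromatin, and GATA2 and GATA6 are zinc finger factors. FOXA2 is known for the uterine glands, SOX17 and GATA2 for hormone-responsive endometrium, and SOX9 for progenitor-like epithelial cells.

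The stretch of 250 bases before the start site was taken for PAX8, whose 8 probe sets all passed the filter, and for GATA6 and FOXA1. GATA6 and FOXA1 were the factors past the filter at least 1.5-fold lower in overexpression, on the probe sets that stood for them. The sequences are RefSeq's, on GRCh38.p14, printed 5′ to 3′ along the gene, and windows of 6 of the 9 factors were searched. No window of SOX9, SOX17 or FOXA2 was used. PAX8 lies on the minus strand (chr2:113278922-113279171), GATA6 on the plus strand (chr18:22169339-22169588) and FOXA1 on the minus strand (chr14:37595250-37595499). Capitals mark matches, on either strand, to 5 short motifs: GATAA for GATA factors, TGTTTNC for FOXA factors, ACAANG for SOX factors, TAATTA for homeodomains and GTCACGC for PAX factors.
PAX8: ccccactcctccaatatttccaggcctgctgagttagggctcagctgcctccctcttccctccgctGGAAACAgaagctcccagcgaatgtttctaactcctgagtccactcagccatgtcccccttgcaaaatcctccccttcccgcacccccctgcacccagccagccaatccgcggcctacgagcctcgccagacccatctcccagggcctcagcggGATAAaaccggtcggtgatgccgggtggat
GATA6: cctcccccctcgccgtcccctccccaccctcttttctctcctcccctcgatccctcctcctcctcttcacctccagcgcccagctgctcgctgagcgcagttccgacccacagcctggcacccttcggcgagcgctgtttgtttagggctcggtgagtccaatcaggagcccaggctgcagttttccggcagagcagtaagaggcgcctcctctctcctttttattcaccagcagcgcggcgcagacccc
FOXA1: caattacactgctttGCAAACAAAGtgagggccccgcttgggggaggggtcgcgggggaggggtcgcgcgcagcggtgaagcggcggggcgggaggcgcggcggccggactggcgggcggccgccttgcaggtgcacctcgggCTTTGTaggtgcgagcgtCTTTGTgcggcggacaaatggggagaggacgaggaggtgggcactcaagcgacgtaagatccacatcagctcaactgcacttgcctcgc
The PAX8 stretch held GATAA at 30 to 26 bases before the start and a FOXA match at 184 to 178 bases. The FOXA1 stretch held 1 FOXA match and 3 SOX matches, of which the FOXA match, at 235 to 229 bases, overlapped the SOX match at 231 to 226 bases. The GATA6 stretch held no match to these letters, and neither did the 2 windows of GATA2. PAX2 had 1 SOX match in each of its 2 windows. EMX2 had TAATTA, which reads the same on both strands, at 30 to 25 bases. Among 35116 windows of this length, 20.4% held GATAA, 15.5% TGTTTNC, 30.9% ACAANG, 4.35% TAATTA and 2.2% GTCACGC. A match describes letters, and binding was not measured.

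Detection was read against 27 probe sets for Bacillus subtilis transcripts, the brightest of which read 5.85 in overexpression and 5.75 in knockdown. The higher of these, 5.85, is the control level used for both arrays. A gene passed a brightness filter where the higher of its arrays reached 6.40, the median of all single-symbol probe sets, and 12061 genes (61.0%) did. Of the 9 factors 7 passed, and SOX17 and EMX2 did not. Values stood above the control level on both arrays for 6 factors, namely PAX2, PAX8, SOX9, FOXA2, GATA2 and GATA6. FOXA2, at 6.41 in knockdown, and FOXA1, at 6.43, lay just inside the filter, and SOX17, at 5.76, was the nearest factor outside it. The 2 arrays had been brought to nearly one distribution before deposit, with medians of 6.02 and 6.01. EMP2 read 12.25 in overexpression and 9.51 in knockdown on its brightest probe set, in the direction of the labels, and its other probe sets differed by 0.39, 0.23 and 0.00.

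PAX2, PAX8 and SOX9 were clear of the controls and close between the lines. On the probe sets that stood for them, GATA6 and FOXA1 were lower in overexpression and GATA2 was higher. The other GATA6 probe set differed by 0.08 the other way, and 1 of 3 GATA2 probe sets reached 1.5-fold. Against the control level FOXA1 was at least 1.49-fold lower. SOX17 and EMX2 did not exceed the control level of 5.85. Past the filter, 1 factor reached 1.5-fold on the higher side, GATA2, against 4.97% of all genes. On the lower side 2 factors reached it, GATA6 and FOXA1, against 4.15% of all genes. A further 4 stayed under 1.5-fold, and 0 reached 2-fold, a gap seen in 3.18% of all genes. GATA6, FOXA1 and FOXA2 passed on their knockdown value alone, and a dim gene that passes on 1 array has to differ, so these counts describe the factors and support nothing. The median difference was -0.07 for the 7 factors and 0.00 for all genes past the filter. Dim genes were more often apart: at least 1.5-fold in either direction for 13.1% of genes with a mean under 7, 11.9% of those from 7 to 9 and 6.03% of those at 9 or more. GATA6 and FOXA1 lie in the first of these bands and GATA2 in the second. PAX8 and SOX9 lie in the third.

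**Figure D1:**
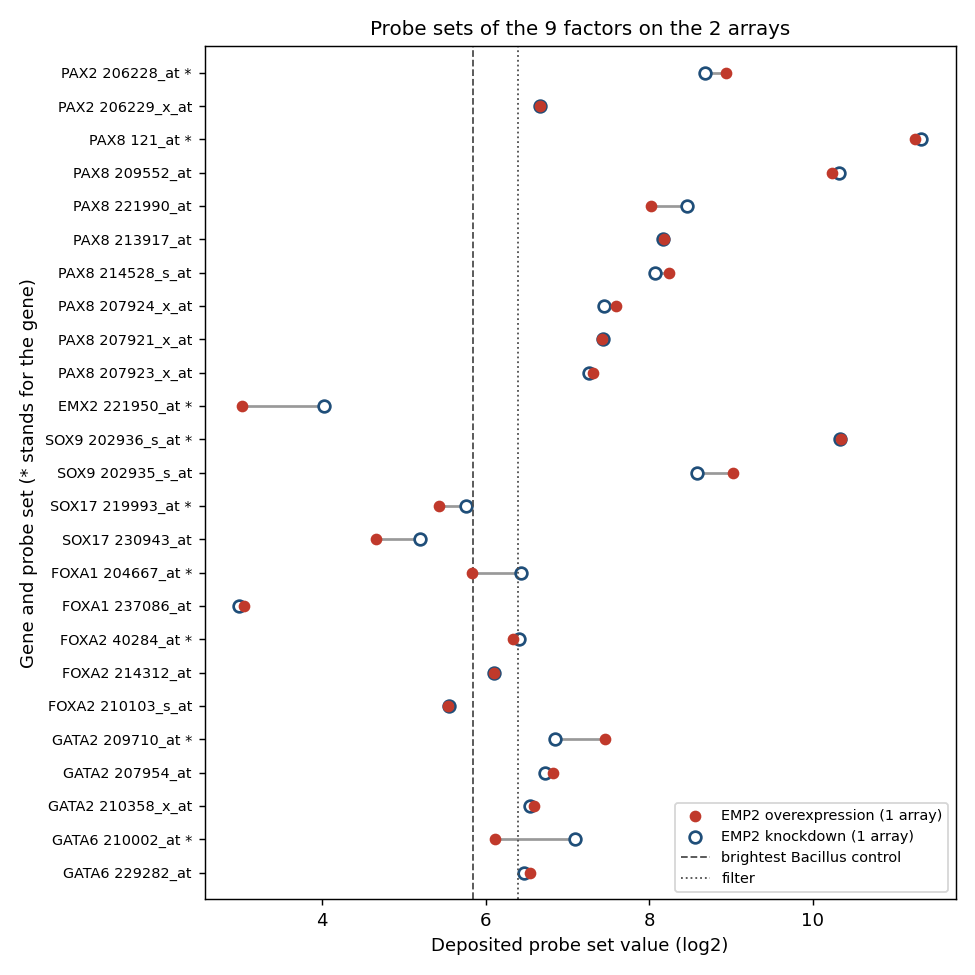
Deposited log2 value of each of the 25 probe sets of the 9 factors, with overexpression as filled and knockdown as open circles, 1 array each, and no error bars because there is no replicate. The dashed line is the brightest Bacillus control over both arrays (5.85) and the dotted line the filter (6.40); the gap between circles is widest for EMX2, below the controls, and for GATA6 210002_at, while the other GATA6 probe set shows almost none.

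PAX8 was the factor with the most probe sets. On 121_at, which stood for the gene, it read 11.26 in overexpression and 11.33 in knockdown and so differed by -0.07. This turned to 0.08 when the arrays were centred on the median of the 27 Bacillus and 18 hybridization control probe sets. The Bacillus ones were dim, with a median of 3.41, and no hybridization control differed by more than 0.10. That centring moved the median difference of all probe sets by 0.16, and every factor moved with it. All 8 PAX8 probe sets passed the filter, and 7 of the 8 were under 0.2 log2 units apart. Of the 8, 4 were lower and 4 higher in overexpression. The widest gap was on 221990_at, at 8.02 in overexpression and 8.46 in knockdown, 1.36-fold. On 209552_at PAX8 read 10.24 and 10.33. At least as large an absolute difference as that of 121_at was seen in 70.4% of genes past the filter.

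PAX2, the close relative of PAX8 in the urogenital ducts, read 8.94 in overexpression and 8.69 in knockdown on 206228_at, which is 0.25 higher or 1.19-fold. A difference at least as large was seen in 31.5% of genes past the filter. Its other probe set, 206229_x_at, read 6.66 on both arrays. It is one of 2 probe sets of the 9 factors with the identical value on both arrays, as were 14.6% of all probe sets. The suffix x marks probe sets that may cross-hybridise, so this value cannot be assigned to PAX2 with certainty.

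SOX9 had 2 probe sets, both clear of the controls. On 202936_s_at it read 10.35 in overexpression and 10.34 in knockdown, a gap of 0.01. On 202935_s_at it read 9.03 in overexpression and 8.59 in knockdown, a gap of 0.44 or 1.36-fold. The probe sets of SOX9 thus gave no gap and a small one, both under 1.5-fold.

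SOX17 did not exceed the control level of 5.85 on either array. Its probe sets read 5.43 in overexpression and 5.76 in knockdown on 219993_at, and 4.66 in overexpression and 5.19 in knockdown on 230943_at. The 5.76 of 219993_at was just above the brightest control of its own array, 5.75. EMX2 was dimmer still, at 3.02 in overexpression and 4.03 in knockdown on its only probe set. With no value above 5.85 no fold is given for EMX2 or SOX17, although all 3 of their probe sets read lower in overexpression. A probe set that does not rise above control gives a bound on the signal and does not show that the transcript is absent.

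FOXA1 read 5.84 in overexpression, just under the brightest control, and 6.43 in knockdown on 204667_at. It was therefore at least 1.49-fold lower in overexpression, while the deposited values differ by -0.59. It counts among the lower factors on the deposited values and not on this bound. The other FOXA1 probe set, 237086_at, read 3.04 and 2.98, far below the controls. With control centring the FOXA1 difference was -0.44, under 1.5-fold. FOXA2, the factor of uterine glands, read 6.34 in overexpression and 6.41 in knockdown on 40284_at, a gap of -0.07 that became 0.09 under control centring. Its other probe sets read 6.11 on both arrays and 5.54 against 5.56. The FOXA2 probe sets were thus dim and level between the lines.

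GATA2 was 1.52-fold higher in overexpression on 209710_at, at 7.46 against 6.85 in knockdown. Its other probe sets were nearly level, at 6.83 against 6.73 on 207954_at and 6.59 against 6.55 on 210358_x_at. All 3 differences were positive, and only 1 of the 3 reached 1.5-fold. GATA6 read 6.11 in overexpression and 7.09 in knockdown on 210002_at, 1.97-fold lower in overexpression. This was the widest gap of a factor past the filter, and 3.35% of genes past the filter had one at least as large. The second GATA6 probe set, 229282_at, read 6.55 in overexpression and 6.46 in knockdown, a gap of 0.08 in the opposite direction. The mean levels of these probe sets were only 0.10 log2 units apart, so which of them stood for GATA6 was close to a tie. Where the probe sets lie in the transcripts was not known here. For comparison, 210 genes at the same 1.5-fold on the lower side had a second probe set past the filter, which agreed in 104 of them (49.5%), as it did in 140 of 238 on the higher side (58.8%). GATA6 and GATA2 had none.

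**Figure D2:**
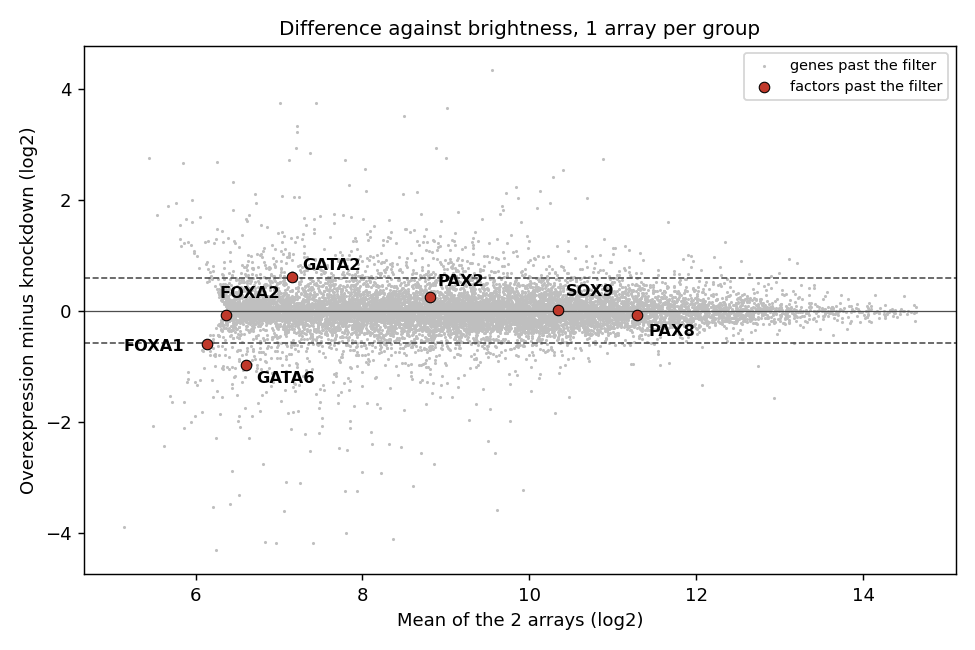
Overexpression minus knockdown (log2) against the mean of both arrays for the 12061 genes past the filter (grey) and the 7 factors past it (red), with dashed lines at 1.5-fold. GATA6 (-0.98) and FOXA1 (-0.59) lie at or below the lower line and GATA2 (0.61) just above the upper, all in the dimmer part of the range, while PAX8, SOX9, PAX2 and FOXA2 lie near 0.

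The other PAX, EMX, SOX, FOXA and GATA genes were mostly dim. Of 30 relatives measured, 10 passed the filter and 17 did not exceed 5.85 on either array, or 15 when each array was read against its own brightest control. Of the 10, 3 were at least 1.5-fold lower in overexpression and 0 higher, with a median of -0.04. Over all genes past the filter 4.15% were lower and 4.97% higher, which is the comparison for each list below too. FOXA3 and SOX3 passed on their knockdown value alone. Of the 7 that reached the filter on both arrays, 1 was lower, SOX4. SOX4, an HMG-box factor of many progenitor and tumour cells, read 9.17 in overexpression and 10.07 in knockdown, 1.87-fold lower, and 2 of the 3 SOX4 probe sets past the filter shared this. FOXA3, the third FOXA gene, read 5.84 in overexpression and 6.83 in knockdown and was at least 1.97-fold lower. SOX3 read 5.80 and 6.86 and was at least 2.01-fold lower. In both the overexpression value was under the controls. GATA4 and GATA1 had differences of 0.00. All 3 FOXA genes passed the filter on their knockdown value alone, so each had to read lower in overexpression as deposited. The differences were -0.59 for FOXA1, -0.07 for FOXA2 and -0.99 for FOXA3, and FOXA2 turned to 0.09 under control centring. Under the filter, the other FOXA1 probe set differed by 0.06 and the other FOXA2 probe sets by 0.00 and -0.02.

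The list of other transcription factors of duct, uterine and epithelial development held wider gaps than the 9 factors. Of 23 measured, 14 passed the filter, with 3 at least 1.5-fold lower, 1 higher and a median of -0.09. SALL1, a zinc finger factor of kidney and duct development, read 8.64 in overexpression and 10.41 in knockdown, 3.40-fold lower, and its second probe set differed by -1.63. FOXO1, which drives decidual genes in the endometrium and is held out of the nucleus by AKT, read 7.13 and 8.56, 2.69-fold lower, with -1.21 on its other probe set past the filter. MEIS1, a partner of HOX proteins, read 5.88 and 6.68, 1.74-fold lower. TFCP2L1, a factor of the CP2 family of duct epithelia, read 6.65 in overexpression and 5.99 in knockdown, 1.59-fold higher. LHX1, which is required for the Mullerian duct, differed by 0.40, and MSX1 by -0.29. Both SALL1 probe sets reached the filter on both arrays. For FOXO1 1 of 3 did, the one with -1.21 passed on knockdown alone, and the third, under the filter, differed by 0.13. MEIS1 passed on knockdown alone too. TFCP2L1 passed on overexpression alone, with 1 of its 3 probe sets. Of the 10 developmental factors that reached the filter on both arrays, 2 were lower and 0 higher.

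The partners and cofactors of the factors were close between the lines. The 20 that passed the filter, of 22 measured, were all under 1.5-fold apart, with a median of -0.09, on the brightest probe set of each. The largest gaps were those of the corepressor TLE1 (-0.53), the acetyltransferase EP300 (-0.52), WWTR1, a coactivator that also binds PAX8 (0.51), and the Mediator subunit MED1 (-0.38). The other WWTR1 probe sets differed by 0.57 and 0.61, the last past 1.5-fold, and under control centring 1 cofactor was at least 1.5-fold higher. ESR1, the oestrogen receptor that FOXA1 works with, read 6.49 on both arrays on a probe set that may cross-hybridise (suffix x), the only one of its 9 past the filter. PGR, the progesterone receptor, did not pass the filter.

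In the lists of genes described as targets of the factors, few were 1.5-fold apart, and they lay on both sides. For PAX2 and PAX8, 9 targets passed the filter, of which 2 reached 1.5-fold on the higher side and 1 on the lower, with a median of 0.14. CDH16, a kidney and thyroid cadherin, read 8.24 in overexpression and 9.20 in knockdown, 1.93-fold lower on its only probe set. BCL2, an inhibitor of apoptosis, was 1.90-fold higher (7.89 against 6.97), with its other probe set past the filter at 6.93 on both arrays. ITGB3, the integrin beta 3 subunit, was 1.56-fold higher on 1 of 6 probe sets past the filter. Of 12 SOX9 targets, 2 were at least 1.5-fold lower and 0 higher, with a median of -0.01. These were keratin 19 (KRT19), at 10.73 against 11.70, and the hepatic and duct factor ONECUT2, at 6.19 against 6.89. ONECUT2 passed the filter on its knockdown value alone, and its 2 probe sets under the filter differed by 0.03 and 0.18. SOX9 itself differed by 0.01 and 0.44 on its probe sets.

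Of 14 FOXA1 or FOXA2 targets, 1 was at least 1.5-fold higher and 0 lower, with a median of 0.01. This was CDH1, E-cadherin, at 10.38 in overexpression and 9.31 in knockdown. The secretory genes TFF1, TFF3 and AGR2, known in FOXA1-positive cells, did not pass the filter. Of 6 GATA2 or GATA6 targets past the filter none was 1.5-fold apart on its brightest probe set, with a median of -0.06, and 17 of the 23 measured did not pass it. The laminin chain LAMB1 (0.53), KLF5 (-0.33), WNT7B (-0.24) and PECAM1 (0.20) had the widest gaps. A second probe set past the filter reached 1.5-fold for LAMB1 (0.68) and KLF5 (-0.71), and 1 target was at least 1.5-fold higher with probe sets averaged, with their median and under control centring. Of 10 SOX17 targets, 2 were higher and 3 lower, with a median of -0.08, though SOX17 itself did not exceed the control level. The laminin chain LAMA1 was 2.21-fold higher (7.09 against 5.95) and DKK3, a secreted Dickkopf protein, 1.78-fold higher. CXCR4, a chemokine receptor, had a lower bound of 1.78-fold on the lower side. NOTCH1 was 1.58-fold lower on 1 of 2 probe sets past the filter, and WNT7A is described next. LAMA1 passed the filter on overexpression alone and CXCR4 on knockdown alone. Of the 7 SOX17 targets that reached it on both arrays, 1 was higher and 2 lower. Some genes stand in more than 1 list, so the lists are not independent.

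**Figure D3:**
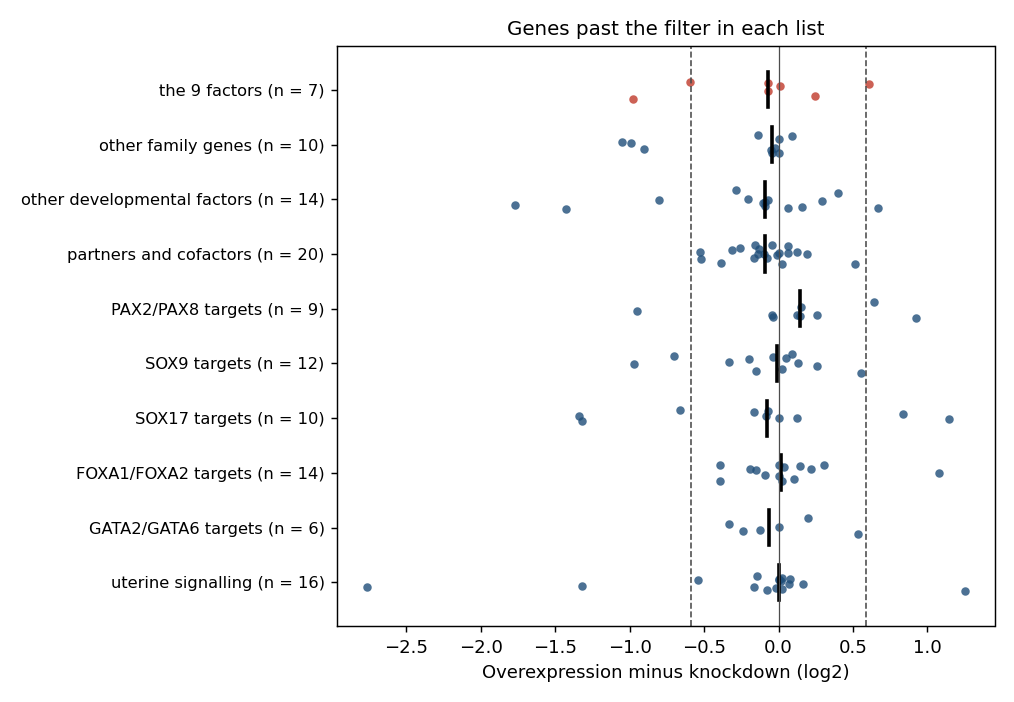
Overexpression minus knockdown (log2) for each gene past the filter in the 9 factors (red) and in 9 related lists (blue), with n the number of genes, black bars for medians and dashed lines at 1.5-fold. Medians lie between -0.09 and 0.14, and the widest gaps are in the developmental factors and in uterine signalling.

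Signals that pattern the uterine epithelium held the widest gap of the 9 related lists. Of 27 measured genes 16 passed the filter, 2 were at least 1.5-fold lower, 1 was higher and the median was 0.00. WNT5A, a ligand that acts largely without beta-catenin, read 5.43 in overexpression and 8.20 in knockdown. It was at least 5.08-fold lower, and its second probe set read 4.78 and 7.02. Both WNT5A probe sets passed the filter on knockdown alone. Of the 14 genes of this list that reached it on both arrays, 1 was lower and 1 higher. WNT7A, the Wnt ligand of Mullerian epithelium, read 6.53 in overexpression and 7.85 in knockdown, 2.49-fold lower on its only probe set. FGFR2, a receptor of epithelial fibroblast growth factor signals, read 8.55 in overexpression and 7.30 in knockdown, 2.38-fold higher, and 3 of the 5 FGFR2 probe sets past the filter reached 1.5-fold on that side. WNT5A and WNT7A were both lower. The Wnt receptor components FZD7 (-0.15) and LRP6 (-0.08) were near level, and LGR4, of the same list, differed by -0.54, under 1.5-fold. IHH, the hedgehog ligand of endometrial epithelium, did not pass the filter, nor did WNT4.

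**Figure D4:**
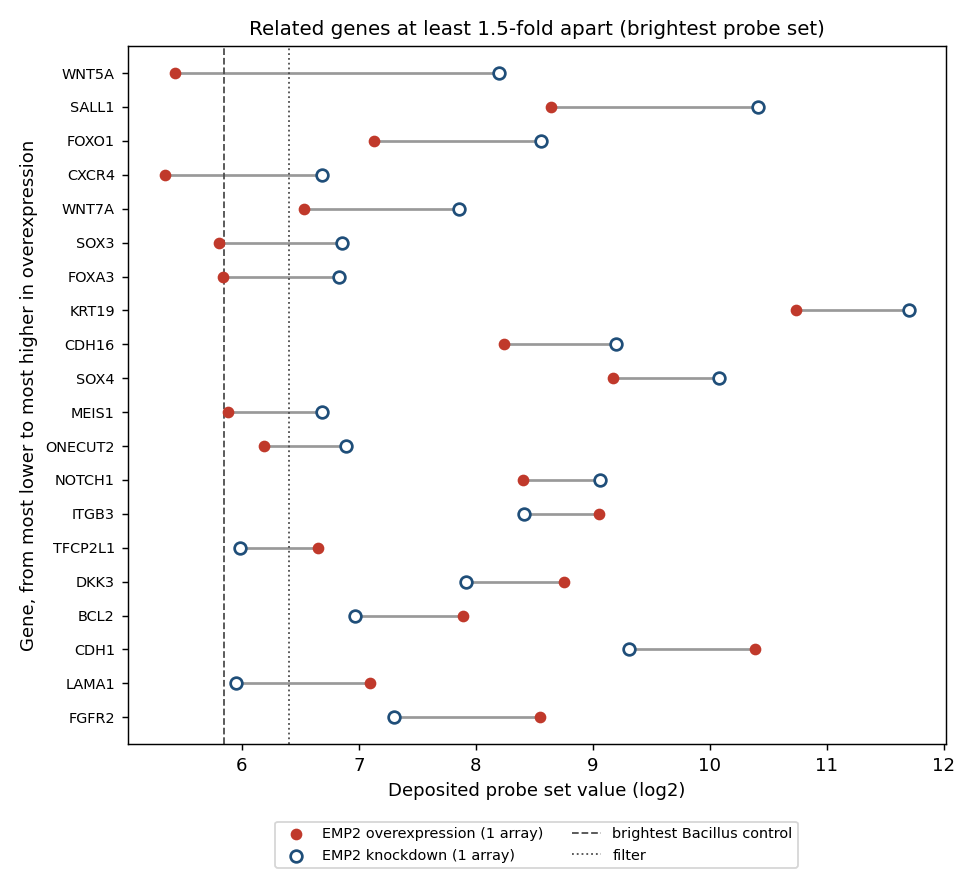
Deposited log2 values in overexpression (filled) and knockdown (open), 1 array each, for the 20 genes of the 9 related lists that were past the filter and at least 1.5-fold apart, on the brightest probe set, with the brightest Bacillus control dashed and the filter dotted. The list runs from WNT5A, most lower in overexpression, to FGFR2, most higher. Of these 20 genes 13 were lower and 7 higher, while over all genes past the filter 4.15% were lower and 4.97% higher. WNT5A, CXCR4, SOX3, FOXA3, MEIS1 and ONECUT2 passed on knockdown alone, and LAMA1 and TFCP2L1 on overexpression alone, so these had to differ. Where 1 circle lies left of the dotted line, the gene passed the filter on 1 array alone.

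Epithelial markers were measured well. All 10 epithelial markers passed the filter, EPCAM reading 13.13 in overexpression and 13.12 in knockdown. Of these 10, KRT19 and KRT8 (-0.77) were at least 1.5-fold lower and CDH1 was higher. Their summed level was 14.92 in overexpression and 15.05 in knockdown, on the log2 scale. Of 10 endothelial markers 3 passed the filter, of 8 leukocyte markers 1, of 10 stromal markers 3, and of 10 ciliated-cell markers 5. The summed levels, overexpression first, were 8.97 and 8.97 for the endothelial, 8.43 and 8.56 for the leukocyte, 9.89 and 9.78 for the stromal, and 11.69 and 11.17 for the ciliated list. DNAH5, an axonemal dynein, was the ciliated marker at least 1.5-fold higher in overexpression, on a probe set of the x type, and its other probe set differed by 0.36. Without DNAH5 the ciliated sum was 9.75 and 9.71. THY1 (0.70) was the stromal marker at least 1.5-fold higher. PTPRC, VWF and DCN did not pass the filter, though VWF and DCN read above 5.85 on both arrays. The markers that did pass were PECAM1, TEK and ROBO4 (endothelial), COL1A1, MME and THY1 (stromal), and NCAM1 (leukocyte). TEK and NCAM1 passed on knockdown alone. COL1A1 read 8.51 in overexpression and 8.48 in knockdown. Each sample was bulk RNA of 1 cell line, HEC1A, and not of a mixed tissue. The share of its cells with a marker and the RNA per cell cannot be told apart.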

How the data were processed

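Total RNA of the 2 HEC1A lines was labelled with biotin and hybridised to Affymetrix arrays, 1 per line, per the labels' protocols. The table deposited by the authors holds 1 log2 value per probe set and array; the base 2 was inferred from the range of 2.01 to 14.72. The submitters' processing notes name Partek 6.6. Background correction, normalization and probe summarization are not stated in the notes or labels. Probe sets (54675) were named from the platform annotation: 41097 had 1 symbol, 1801 several and 11777 none, and the last 2 kinds were not used. Values were used as deposited. The filter (6.40) was the median of single-symbol probe sets. Where a lower value did not exceed the brightest Bacillus control of either array (5.85), the fold was taken against 5.85 and is a lower bound. The members and lists were chosen with earlier results of these data known. Named genes were all 9 factors with every probe set, EMP2, and in each list the members past the filter and 1.5-fold, or otherwise up to 4 with the largest difference; a few others, such as ESR1, LHX1, MSX1, GATA1, GATA4, FZD7, LRP6 and genes under the filter, were chosen after their values were seen. With 1 array per group the number of arrays limits the precision, and the largest difference of 18 hybridization controls was 0.10. The counting was tested on simulated data. Python 3.11.15 and pandas 2.3.3 were used. Other settings tried were the mean or median of a gene's probe sets, 3 scalings, 2 filters and a floor at the control level.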

Additional observations from a re-analysis of the deposited data

How the results depend on the processing

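No paired analysis was possible because each group has 1 array, and no array could be left out. Taking the mean of a gene's probe sets, 0 of the 9 factors were at least 1.5-fold higher and 0 lower, against 1 and 2, and with their median also 0 and 0. GATA6 then differed by -0.45 with either, GATA2 by 0.25 with the mean and 0.10 with the median, and FOXA1 by -0.26. With a filter at the 75th percentile 0 and 0 factors were called, since none of the 3 reached it. Control centring and a floor at the brightest control each left 1 factor at least 1.5-fold lower, GATA6. With no filter 1 factor, EMX2, was at least 2-fold lower, on values under the control level. No factor past 1.5-fold changed direction under the alternatives run, but none of these let another probe set alone stand for a gene. For GATA6 the other probe set, 229282_at, differed by 0.08 in the opposite direction. In the related lists (7 genes higher and 13 lower at 1.5-fold, 3 and 6 at 2-fold), the mean gave 2 higher, 8 lower and 0 at least 2-fold higher, the median 2 higher and 0 at least 2-fold higher, and the stricter filter 4 higher, 6 lower and 2 at least 2-fold lower. Over all genes (600 higher and 500 lower at 1.5-fold, 199 and 185 at 2-fold), the mean gave 265 lower, and 122 higher and 106 lower at 2-fold, the median 304 lower and 113 lower at 2-fold, control centring 1010 higher and 309 lower, and the stricter filter 366 and 268, with 116 and 86 at 2-fold. Median centring and quantile normalization moved none of these counts by over 1.5 times. Averages take in the other probe sets of a gene, and the stricter filter tests fewer genes. For GATA6 and GATA2 those other probe sets passed the filter too. The causes of the moves were not tested. Values near the controls limit what can be said of FOXA1, FOXA2, SOX17 and EMX2.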

Other observations

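The genes next to the factors on their chromosomes were taken as the 5 nearest genes past the filter on either side in RefSeq order. Over all genes past the filter, 4.15% reached 1.5-fold on the lower side and 4.97% on the higher. Around GATA6, 0 of 10 neighbours reached 1.5-fold on the lower side and 1 did so on the higher side, the cholesterol transporter NPC1 (0.59), with a median of 0.10. The immediate neighbours MIB1 and CABLES1 differed by 0.07 and 0.23. Around GATA2 none of 10 was 1.5-fold apart, and MGLL, a monoacylglycerol lipase, had the widest gap at 0.52. Around FOXA1 none of 10 was 1.5-fold apart, with a median of -0.16. Around FOXA2, the factor with the most such neighbours, 4 of 10 reached 1.5-fold on the lower side and 0 on the higher. FOXA2 itself was level. They were THBD, which encodes thrombomodulin (-1.27), KIZ (-0.80), RALGAPA2 (-0.73) and LINC03125 (-0.69). LINC03125 passed the filter on knockdown alone, so it had to differ. Next to SOX9, the potassium channel gene KCNJ2 read 9.49 in overexpression and 8.72 in knockdown, and ABCA5 differed the other way, by -0.66. ABCA5 passed the filter on knockdown alone. At 1.5-fold, 1 of 10 neighbours was higher and 1 lower around PAX8, and 2 higher and 0 lower around EMX2. Around SOX17 0 were higher and 2 lower, and around PAX2 0 and 0. The lower neighbour of PAX8, NT5DC4, passed the filter on knockdown alone. These genes were chosen by position and named after their values were seen.

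Antisense and divergent transcripts of the factors were dim. GATA2-AS1 read 6.26 in overexpression and 6.02 in knockdown, under the filter. The probe sets of GATA6-AS1, PAX8-AS1, SOX9-AS1 and EMX2OS did not exceed the control level of 5.85 on either array. GATA6-AS1 read 5.03 on both.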
